A study of Mus musculus with 136 samples.

Results

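Iron enters cells through the transferrin receptor (Tfrc) and is stored in ferritin, a shell built of a heavy (Fth1) and a light (Ftl1) subunit. The levels of 8 genes of iron uptake and storage and of metal binding were taken from the 47643 genes of a count table: these 3, the genes of the iron regulatory proteins IRP2 (Ireb2) and IRP1 (Aco1), the metallothionein genes Mt1 and Mt2, and Mtf1, the zinc-sensing transcription factor that switches metallothionein genes on. They were chosen by their names, with earlier results of these data known, and each had counts in every library analysed. In build GRCm38 the iron genes lie at chr19:9980598-9985098 (Fth1, ENSMUSG00000024661), chr7:45457944-45459884 (Ftl1, ENSMUSG00000050708), chr16:32608920-32632794 (Tfrc, ENSMUSG00000022797), chr9:54863789-54912530 (Ireb2, ENSMUSG00000032293) and chr4:40143081-40198338 (Aco1, ENSMUSG00000028405). Mt1 and Mt2 lie side by side at chr8:94179082-94180327 (ENSMUSG00000031765) and chr8:94172664-94173568 (ENSMUSG00000031762), and Mtf1 at chr4:124802104-124849800 (ENSMUSG00000028890). The libraries were 3′ end libraries with molecular identifiers of the embryo and of the visceral yolk sac of 66 concepti at E8.5 of NOD mice, an inbred strain prone to autoimmune diabetes, from which the normal dams came as well. Concepti with 5 or 6 somite pairs came from normal (17 concepti of 10 litters) or diabetic (17 of 9 litters) pregnancies, and those with 7 to 9 somite pairs likewise (16 of 7 and 16 of 6 litters), each as an embryo and a yolk sac library. Blood glucose of the dams was 105 to 164 mg/dl in normal and 423 to 595 mg/dl in diabetic pregnancies, with 1 diabetic litter above the scale of the meter. Littermates share a dam, and 7 of the 16 diabetic concepti at 7–9 somite pairs came from 1 litter (D24M15). In each tissue the comparison of conditions is therefore one of dams as well as of concepti.

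The iron regulatory proteins bind short hairpins in messenger RNA, the iron-responsive elements, when iron is scarce. Binding in the leader of ferritin mRNA blocks its translation, and binding behind the coding region of transferrin receptor mRNA protects that mRNA from decay. Ferritin protein is thus set largely after transcription, and counts of mRNA do not report it. IRP1 is cytosolic aconitase when it holds an iron-sulphur cluster, while IRP2 is degraded when iron is plentiful. Metallothioneins are small cysteine-rich proteins that bind zinc and copper, and the visceral endoderm of the yolk sac, the absorptive epithelium that feeds the early rodent embryo, is known as a site of high metallothionein expression.

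The iron-responsive elements are shown because they tie 3 of the 8 genes to the same regulators. A hairpin of a C, 5 bases, a loop CAGTGN and 5 bases that pair with the first 5 was searched on the sense strand of the GENCODE M21 transcripts of each member (build GRCm38), and the capitals mark the loop. Fth1 had 1 in its 5′ UTR (chr19:9982738-9982754, plus strand), Ftl1 had 1 in its 5′ UTR (chr7:45459785-45459801, minus strand), and Tfrc had 4 in its 3′ UTR (chr16:32631225-32631241, chr16:32631604-32631620, chr16:32631669-32631685 and chr16:32631716-32631732, plus strand). Each is printed 5′ to 3′ with 3 bases added on either side of the hairpin. No match was found in the transcripts of the other 5 members.
Fth1 element: ctgcttcaaCAGTGCttgaacgg
Ftl1 element: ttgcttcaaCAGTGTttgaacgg
Tfrc element A: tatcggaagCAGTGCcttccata
Tfrc element B: tatcgggagCAGTGTcttccata
Tfrc element C: tatcggagaCAGTGAtctccata
Tfrc element D: tatcgggaaCAGTGTttcccata

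The promoter windows of Mt1 and Mt2 are shown because the counts of these neighbouring genes moved together, as given further on. They span 250 bases before to 50 bases after the start of each gene in RefSeq (build GRCm38.p6), Mt1 at chr8:94178839-94179138 and Mt2 at chr8:94172368-94172667, both on the plus strand. Capitals mark the core of the metal response element, to which MTF1 binds, searched as TGCACNC or TGCGCNC on both strands, where GNGTGCA and GNGCGCA are the same letters read from the minus strand. The Mt1 window held 3 cores, beginning at -23, 2 and 20 from that RefSeq start, and the Mt2 window held 4. Bases of these genes outside the windows were not searched for cores. Of 32851 RefSeq windows of this length, 25.7% held at least 1 core, 1.31% at least 3 and 0.295% at least 4. Tfrc and Aco1 had 1 each in a window, and those of Fth1, Ftl1, Ireb2 and Mtf1 had none. A match describes letters and is not evidence of binding.
Mt1 window: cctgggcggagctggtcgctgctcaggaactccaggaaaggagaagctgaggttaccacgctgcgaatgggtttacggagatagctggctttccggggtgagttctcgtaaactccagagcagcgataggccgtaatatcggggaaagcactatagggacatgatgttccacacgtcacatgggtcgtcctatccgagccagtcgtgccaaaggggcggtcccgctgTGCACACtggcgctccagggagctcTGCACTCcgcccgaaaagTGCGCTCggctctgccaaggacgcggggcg
Mt2 window: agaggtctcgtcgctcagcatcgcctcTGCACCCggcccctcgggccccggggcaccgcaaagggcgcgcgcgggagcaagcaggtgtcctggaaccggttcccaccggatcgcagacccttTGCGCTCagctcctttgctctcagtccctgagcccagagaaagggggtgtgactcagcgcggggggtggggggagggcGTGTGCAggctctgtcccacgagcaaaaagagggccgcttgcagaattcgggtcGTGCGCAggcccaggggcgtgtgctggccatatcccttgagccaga

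Total counts per library ran from 1017901 to 5658850 with a median of 2302819. Values are given as normalized counts, that is counts divided by a size factor fitted over the libraries of both tissues. Reads come from the 3′ end, so the length of a gene does not enter its level. The labelled tissues matched their markers. The summed normalized count of 10 visceral endoderm markers was 10372 to 26949 in yolk sacs of diabetic pregnancies at 5–6 somite pairs and 21639.9 to 53508 in those of normal pregnancies at 7–9, the groups with the lowest and the highest value, against at most 3362 in any embryo. The 5 markers of neural and other tissue of the embryo proper summed to at least 598 in embryos and at most 62.7 in yolk sacs. Sums of 4 trophoblast and of 3 macrophage markers were at most 20.8 and 12.8, and 2 decidual markers, with at most 36.1 in the other groups, reached 339 and 719 in yolk sacs of diabetic pregnancies at 5–6 and 7–9 somite pairs (medians 9.78 and 6.10). In 2 of 66 concepti (D28M27C and N28M07E) embryo and yolk sac carried different sex labels, and their sex-linked counts differed in the same way. Another 6 libraries held both Xist and Y-linked counts: the yolk sacs of D24M15A, D24M15D and D24M15G and the embryos of D24M15G, D24M15H and D28M23B, all from diabetic pregnancies at 7–9 somite pairs. In bulk tissue, fewer cells of a type and less RNA per cell cannot be told apart.

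For 2 concepti (D24M15G and N28M06C) both tissues had duplicate libraries that served as batch controls. These 4 duplicates entered no group. Over the 8 members and 4 pairs, the duplicate and its original differed on the log2 scale by a median of 0.054, and the widest gap was 0.76, for Mt1 in the embryo of D24M15G. Mt1 had 665 counts in the original and 406 in the duplicate, and Mt2 had 541 and 378. That original is one of the 6 libraries with mixed sex-linked counts. In CPM it held 1572 of the visceral endoderm markers against 488 in the duplicate, 1033 against 185 of 5 primitive erythroid markers and 91.9 against 27.4 of Xist. The embryo original of N28M06C and its duplicate had Mt1 counts of 937 and 920.

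Both metallothioneins and the heavy ferritin chain were many times higher in the yolk sac than in the embryo, while IRP2 mRNA and, at 5–6 somite pairs, transferrin receptor mRNA were slightly lower there. Yolk sac was compared with embryo within each stage, over both maternal conditions, with edgeR's quasi-likelihood test. This fit did not pair the libraries of a conceptus. The p-values were adjusted by Benjamini-Hochberg across every gene in the fit. A call is an adjusted p under 0.05, and errors of log2 fold changes are standard errors. At 5–6 somite pairs 8 of 8 members were called (6 higher and 2 lower in yolk sac), against 79.2% of all genes tested (39.4% raised, 39.8% lowered). At 7–9 somite pairs 7 of 8 were called (6 higher, 1 lower), against 81.3% of all genes tested (38.7% raised, 42.6% lowered). A call alone thus says little about a member, and the sizes differ widely. All 8 members passed the filter on low counts in every comparison. Without the 7 concepti with mixed or different sex-linked counts the members called between tissues and between stages were the same.

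Fth1, the subunit that oxidizes iron for storage, ranged in embryos at 5–6 somite pairs from 359.7 to 798 with a median of 507 in normal and from 314 to 767 with a median of 512 in diabetic pregnancies. In yolk sacs of that stage it ranged from 1880.4 to 3833 with a median of 2506 and from 1396 to 3782 with a median of 2895. The tissues did not overlap, and yolk sac was higher in 34 of 34 concepti. At 7–9 somite pairs Fth1 ranged from 432 to 1278 with a median of 618 (normal) and from 415 to 1132 with a median of 715 (diabetic) in embryos. The yolk sacs ranged from 2095 to 4417 with a median of 3369 and from 2597 to 6213 with a median of 3850.0. Again no embryo reached the lowest yolk sac. The log2 difference was 2.42 ± 0.088 at the earlier stage (5.35-fold, n = 34 concepti, edgeR adjusted p = 1.95e-38) and 2.37 ± 0.090 at the later (5.18-fold, n = 32, adjusted p = 2.42e-36). How many of all genes had tissue ranges without overlap was not determined.

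Ftl1, the subunit that favours mineral formation inside the shell, spanned 138 to 380.0 in embryos and 102 to 904 in yolk sacs at 5–6 somite pairs, and 51.4 to 573 and 456 to 1728 at 7–9. These ranges overlapped, although yolk sac was higher in 33 of 34 and 31 of 32 concepti. Its log2 difference was 1.23 ± 0.10 (edgeR adjusted p = 4.34e-19) and 1.63 ± 0.12 (adjusted p = 1.20e-19). Heavy and light chain therefore did not differ between tissues by the same factor. The ratio of Fth1 to Ftl1 counts had medians of 2.34 and 2.49 in normal and diabetic embryos at 5–6 somite pairs and of 4.98 and 5.74 in yolk sacs. At 7–9 somite pairs the medians were 2.37 and 2.60 in embryos, while yolk sacs had medians of 4.30 and 4.14. The ratio was higher in the yolk sac in 34 of 34 concepti at 5–6 and in 31 of 32 at 7–9. Rows of the table named as copies or relatives of Fth1 (10 rows) and Ftl1 (3 rows) held 0.397% and 0.186% of the counts of the parent gene. Of the 1006 counts in the rows for Fth1, 997 belonged to Fthl17a, a protein-coding gene. Few reads were thus counted for named copies, but these rows cannot show reads that were counted for neither gene.

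Tfrc, the receptor that takes up transferrin-bound iron, ranged in embryos at 5–6 somite pairs from 541 to 1002 with a median of 746 in normal and from 462 to 784 with a median of 634 in diabetic pregnancies. In the yolk sacs it ranged from 375 to 1297 with a median of 508 and from 247 to 983 with a median of 506. The tissues overlapped broadly, and embryo was the higher one in 28 of 34 concepti. At 7–9 somite pairs embryos ranged from 468 to 765 with a median of 632 and from 331 to 749 with a median of 562. Yolk sacs ranged from 234 to 954 with a median of 592 and from 311 to 833 with a median of 488, and embryo was higher in 19 of 32 concepti. The log2 difference was -0.31 ± 0.086 (edgeR adjusted p = 9.11e-04) and -0.13 ± 0.088 (adjusted p = 0.179), the latter not called. Ribosomal protein genes were also lower in yolk sac, 40 lower and 3 higher of 78 at the earlier stage. With each library's share of ribosomal protein counts in the fit, the Tfrc difference at 5–6 somite pairs was -0.020 and no longer called (adjusted p = 0.883). The share itself differed between tissues at that stage. Its mean was 5.03% in embryos and 3.58% in yolk sacs of normal pregnancies, and 4.65% and 3.24% in diabetic ones. The fit thus cannot fully separate the share from the tissue, and its part in the Tfrc difference was not tested. Tfrc counts stood to Fth1 counts in a median ratio of 1.54 in normal embryos and 0.190 in normal yolk sacs at 5–6 somite pairs, and of 0.935 and 0.173 at 7–9. The ratio was higher in the yolk sac in 0 of 34 and 0 of 32 concepti, both conditions included.

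The regulators differed less between tissues. Ireb2 averaged 705 ± 108 (SD, n = 17) in normal embryos and 564 ± 76.8 in normal yolk sacs at 5–6 somite pairs, and 646 ± 137 and 518 ± 99.1 (n = 16) at 7–9. It was lower in yolk sac by log2 -0.21 ± 0.057 (edgeR adjusted p = 6.87e-04) and -0.31 ± 0.072 (adjusted p = 9.75e-05), in 29 of 34 and 27 of 32 concepti. The earlier difference was -0.17 with the ribosomal protein share in the fit (adjusted p = 0.0515), and the later was -0.16 with counts summed per litter (adjusted p = 0.115), neither called. As said for Tfrc, that share itself differed between tissues. Aco1 went the other way. It averaged 84.4 ± 17.3 in normal embryos and 124 ± 30.5 in normal yolk sacs at 5–6 somite pairs, and 88.5 ± 14.6 and 142 ± 24.1 at 7–9. Its log2 difference was 0.60 ± 0.085 (edgeR adjusted p = 2.24e-09) and 0.75 ± 0.072 (adjusted p = 1.60e-15), with yolk sac higher in 31 of 34 and 31 of 32 concepti.

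Mt1 ranged in embryos at 5–6 somite pairs from 268 to 481 with a median of 379 in normal and from 128 to 591 with a median of 343 in diabetic pregnancies. In yolk sacs it ranged from 2085 to 7544 with a median of 3209.6 and from 2424 to 4515 with a median of 3010.1. The lowest yolk sac stood far above the highest embryo. At 7–9 somite pairs embryos ranged from 182 to 393 with a median of 296 and from 209 to 793 with a median of 307. Yolk sacs ranged from 3159 to 6069.7 with a median of 3735 and from 2416 to 4960.0 with a median of 3309, once more without overlap. Mt2 spanned 123 to 489 in embryos, with yolk sacs at 1724 to 6758, among the younger concepti, and 179 to 501 and 1436 to 4785 among the older. Both genes were higher in the yolk sac of every one of the 66 concepti. The log2 differences were 3.28 ± 0.095 for Mt1 and 3.16 ± 0.10 for Mt2 at 5–6 somite pairs (9.68-fold and 8.95-fold, edgeR adjusted p = 1.78e-44 and 2.08e-42). At 7–9 they were 3.50 ± 0.10 and 3.43 ± 0.10 (11.3-fold and 10.7-fold, adjusted p = 7.87e-43 and 3.66e-44). The 10 visceral endoderm markers had median log2 differences of 5.25 and 5.68, beside -0.0029 and -0.042 over all genes, wider differences than those of Mt1 and Mt2.

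Mtf1 had the lowest counts of the members, 52.6 ± 7.58 in normal embryos and 55.9 ± 10.9 in normal yolk sacs at 5–6 somite pairs. It was higher in yolk sac by log2 0.24 ± 0.065 (edgeR adjusted p = 6.97e-04) and, at 7–9 somite pairs, by 0.41 ± 0.066 (adjusted p = 4.95e-08), in 23 of 34 and 28 of 32 concepti. The factor's own mRNA thus differed between tissues far less than the metallothionein mRNAs.

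**Figure D1:**
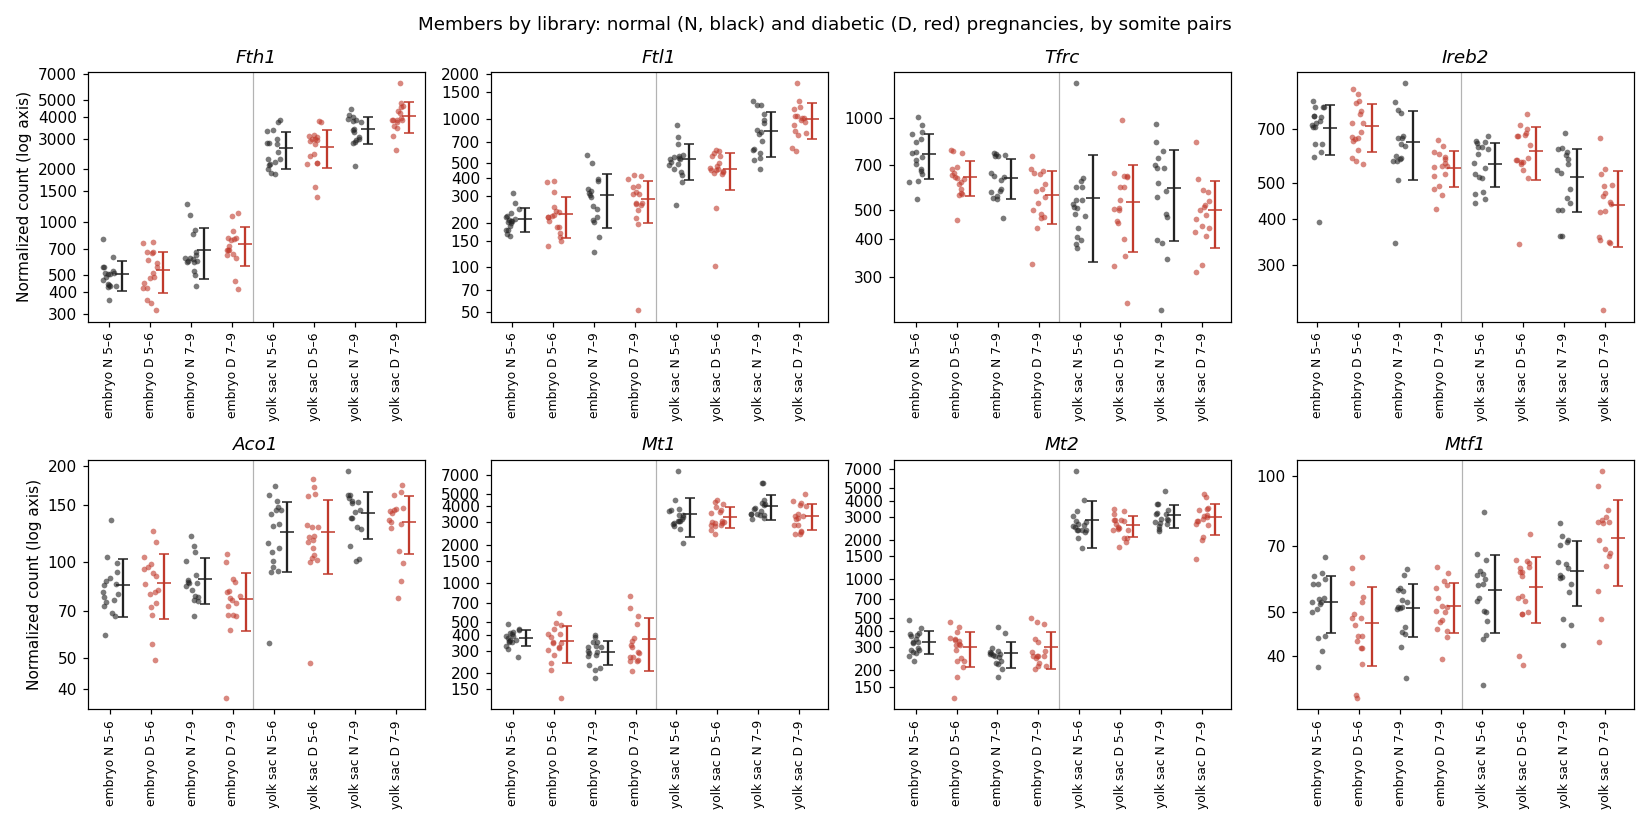
Normalized counts of the 8 members in the libraries of 66 concepti on log axes, one point per library, by tissue, maternal condition (N normal in black, D diabetic in red) and somite pairs; bars are the mean ± SD. Embryo and yolk sac do not overlap for Fth1, Mt1 and Mt2, with embryos up to 1278, 793 and 501 at 7–9 somite pairs and yolk sacs from 2095, 2416 and 1436, while normal and diabetic points overlap in every panel. Overlap was looked at for the 8 members only.

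From 5–6 to 7–9 somite pairs both ferritin chains rose and Ireb2 fell in both tissues. In embryos 4 of 8 members were called (2 raised, 2 lowered), against 30.8% of all genes tested (15% raised, 15.8% lowered). In yolk sacs 4 of 8 were called (3 raised, 1 lowered), against 40% of all genes tested (21.7% raised, 18.3% lowered). Stages were compared over both maternal conditions (34 younger and 32 older concepti). In embryos Fth1 averaged 520.4 and 722, a log2 rise of 0.48 ± 0.090 (edgeR adjusted p = 3.11e-05), with 28 of 32 later embryos above the earlier median. Ftl1 averaged 220.5 and 297, a rise of 0.44 ± 0.11 (adjusted p = 0.00191). In yolk sacs Fth1 went from 2669 to 3717, a rise of 0.49 ± 0.080 (adjusted p = 1.63e-06). Ftl1 changed most of all members there, from 496 to 914, a rise of 0.89 ± 0.11 (adjusted p = 7.55e-10), with 31 of 32 later yolk sacs above the earlier median.

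Ribosomal protein genes moved with stage as well. In embryos 25 of 77 rose and 1 fell (median log2 change 0.18), and in yolk sacs 43 of 78 rose and 1 fell (0.30). With the share of ribosomal protein counts of each library in the fit, the rises remained called at 0.41 for Fth1 and 0.32 for Ftl1 in embryos and at 0.39 and 0.73 in yolk sacs (edgeR adjusted p = 3.15e-04, 0.0199, 1.61e-04 and 4.04e-07). Library titles carry the numbers 23, 24 or 28, whose meaning the labels do not give. Among libraries with 28, the embryo rise of Ftl1 was 0.35 and not called (adjusted p = 0.0802). Erythroid markers rose with stage too, with 3 of 3 tested called in embryos (median log2 change 4.22) and 4 of 5 in yolk sacs (0.80). Of 10 visceral endoderm markers 8 rose and 1 fell in yolk sacs (0.59). Their part in the ferritin rise was not tested.

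Ireb2 fell from 708 to 598 in embryos, a log2 change of -0.24 ± 0.060 (edgeR adjusted p = 0.00133), and from 587 to 478 in yolk sacs (-0.29 ± 0.068, adjusted p = 4.75e-04). Of the later libraries 28 of 32 embryos and 26 of 32 yolk sacs lay below the earlier median. Tfrc fell in embryos from 699 to 597 (-0.22 ± 0.061, adjusted p = 0.00461), and with counts summed per litter this was -0.22 and not called (adjusted p = 0.0517). In yolk sacs its change was 0.018 ± 0.11 (adjusted p = 0.909), with a 95% interval from -0.20 to 0.23. Mtf1 rose in yolk sacs by 0.26 ± 0.069 (adjusted p = 0.00153), but by 0.18 and without a call among libraries with the title number 28 (adjusted p = 0.101). Aco1 was not called in either tissue (-0.039 ± 0.074 and 0.17 ± 0.085, adjusted p = 0.731 and 0.108).

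Neither metallothionein was called with stage. Mt1 differed by -0.15 ± 0.10 in embryos and 0.12 ± 0.082 in yolk sacs, and Mt2 by -0.15 ± 0.091 and 0.17 ± 0.089 (edgeR adjusted p from 0.130 to 0.267). Single litters changed this. Without litter D28M23 the embryo values were -0.23 for Mt1 and -0.22 for Mt2 (adjusted p = 0.0439 and 0.0455), and without litter N28M06 the yolk sac value of Mt2 was 0.24 (0.0160), all 3 called. Mt2 was also called in embryos with the ribosomal protein share in the fit (-0.24, adjusted p = 0.0182) and in yolk sacs with counts summed per litter (0.25, adjusted p = 0.0327). The yolk sac values turned to -0.056 for Mt1 and -0.11 for Mt2 with the ribosomal protein share in the fit.

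**Figure D2:**
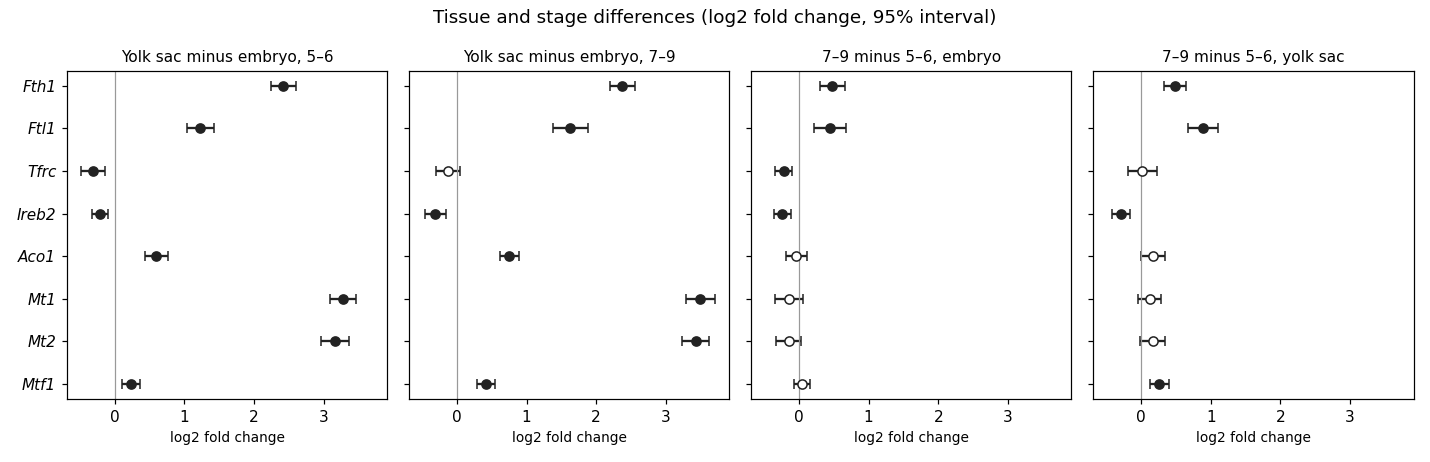
Log2 fold changes of the 8 members with 95% intervals for yolk sac minus embryo at 5–6 and 7–9 somite pairs and for 7–9 minus 5–6 somite pairs in each tissue; filled points are called at an adjusted p under 0.05. Mt1 reaches 3.50 between tissues, and the widest stage difference is 0.89 for Ftl1 in yolk sacs.

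By single somite number, Ftl1 in yolk sacs averaged 515 ± 126 (SD, n = 24) at 5 somite pairs, 451 ± 164 (n = 10) at 6, 793 ± 188 (n = 11) at 7, 907 ± 346 (n = 13) at 8 and 1089.7 ± 198 (n = 8) at 9. Ireb2 in the same yolk sacs averaged 595 ± 80.8, 569 ± 113, 517 ± 97.5, 474 ± 126 and 429 ± 69.7. For both genes the mean ± SD of each somite number overlapped that of the next. In embryos Fth1 averaged 551 ± 124 at 5 and 447 ± 82.7 at 6 somite pairs, 769 ± 283 at 7, 744 ± 169 at 8 and 623 ± 97.1 at 9, so its embryo levels did not climb from each number to the next.

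**Figure D3:**
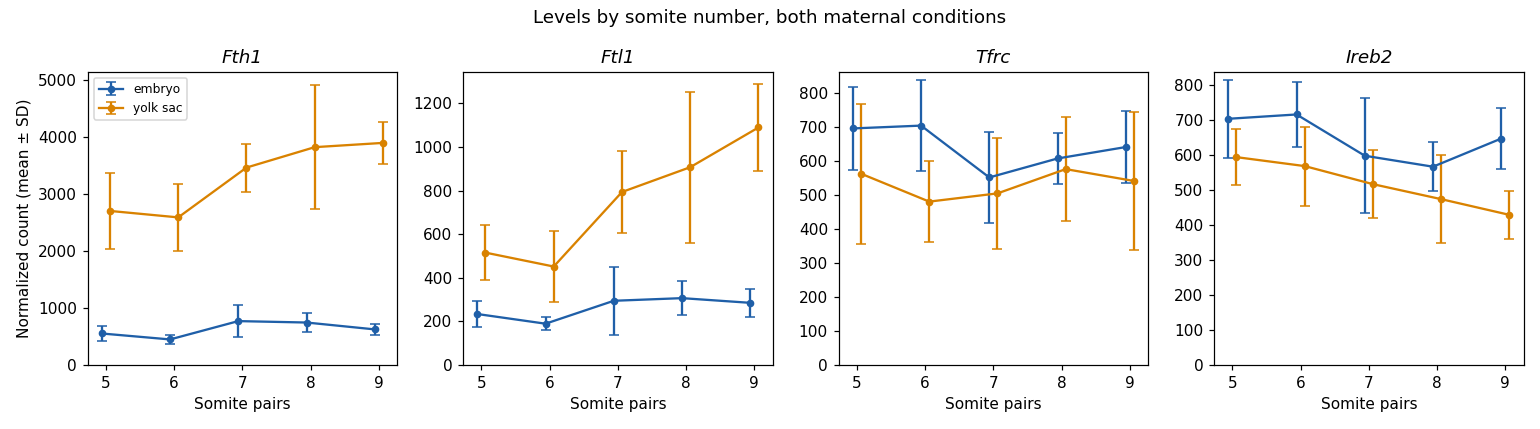
Mean ± SD of the normalized counts of Fth1, Ftl1, Tfrc and Ireb2 at 5 to 9 somite pairs in embryos (blue) and yolk sacs (orange), both maternal conditions together. Ftl1 in yolk sacs goes from 515 at 5 to 1089.7 at 9 somite pairs and Ireb2 from 595 to 429.

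Whether maternal diabetes changed these genes was asked within each tissue and stage. No member was called. The counts were 0 of 8 in embryos at 5–6 somite pairs, against 1.46% of all genes tested (0.591% raised, 0.872% lowered), and 0 of 8 at 7–9, against 9.09% of all genes tested (5.2% raised, 3.89% lowered). In yolk sacs they were 0 of 8 at 5–6 and 0 of 8 at 7–9, against 0% and 0.0194% of all genes tested. In edgeR an unadjusted p under 0.05 was reached by 1, 2, 0 and 4 members in that order. Over all genes it was reached by 2313 of 11004, 2916 of 10628, 863 of 10250 and 1122 of 10317. The DESeq2 test and limma with litter as a block called 0 of 8 in each comparison as well. Of all genes DESeq2 called 493 of 17563, 1407 of 17182, 4 of 26858 and 38 of 14744. Limma called 4 of 11004, 314 of 10628, 0 of 10250 and 1 of 10317. All 32 log2 differences (diabetic minus normal) lay between -0.25 and 0.33. Their 95% intervals, read singly, all lay inside a 2-fold change in either direction, with outermost bounds of -0.53 and 0.63, and 31 of 32 inside a 1.5-fold change. These intervals treat littermates as independent and leave room for small changes.

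Tfrc had values of 759 ± 128 in normal and 639 ± 84.3 in diabetic embryos at 5–6 somite pairs (SD, n = 17 each), and 14 of 17 diabetic embryos lay below the normal median. The log2 difference was -0.24 ± 0.080 (edgeR adjusted p = 0.0951). At 7–9 somite pairs it was -0.19 ± 0.093 in embryos (636 ± 95.6 and 558 ± 109, n = 16 each, adjusted p = 0.189) and -0.24 ± 0.14 in yolk sacs (adjusted p = 0.560). In yolk sacs at 5–6 it was -0.034 ± 0.15 (adjusted p = 0.965). The embryo difference at 5–6 was called without litter D28M37 (-0.29, adjusted p = 0.0414). Over all litters left out in turn it was -0.29 to -0.20, with an edgeR adjusted p up to 0.306. Under the other alternatives it was -0.27 to -0.15, with an adjusted p of 0.0651 to 0.598 over the edgeR, DESeq2 and limma fits. Between litter means it was -0.17 (exact permutation p = 0.0881). Ireb2 in embryos at 7–9 somite pairs was 646 ± 137 in normal and 550.2 ± 61.8 in diabetic pregnancies, with 15 of 16 diabetic embryos below the normal median and a log2 difference of -0.23 ± 0.089 (adjusted p = 0.0915). It was called without litter N24M21 (-0.28, adjusted p = 0.0213). In yolk sacs at 7–9 Ireb2 differed by -0.24 ± 0.11 (adjusted p = 0.416), by -0.12 without litter D24M15 and by -0.062 with the title number 28 alone. Ribosomal protein genes were higher in diabetic embryos of that stage, 16 of 77 called, and the embryo value of Ireb2 was -0.13 with their share in the fit.

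The ferritin chains had their widest differences in yolk sacs at 7–9 somite pairs. Fth1 was 3409.6 ± 599 in normal and 4025 ± 807 in diabetic pregnancies (log2 0.24 ± 0.10, edgeR adjusted p = 0.391), and Ftl1 was 829 ± 274 and 999 ± 272 (0.27 ± 0.14, adjusted p = 0.506). Without litter D24M15, which gave 7 of the 16 diabetic concepti, the Fth1 and Ftl1 values were 0.11 and 0.10, and with the title number 28 alone they were 0.069 and -0.0094. Without the 7 concepti with mixed or different sex-linked counts the Ftl1 value was 0.061. Single libraries stood apart for Ftl1, at 102 in a diabetic yolk sac of 5–6 somite pairs (group median 456) and at 51.4 in a diabetic embryo of 7–9 (median 292). Mtf1 in yolk sacs at 7–9 was 61.7 ± 10.2 and 72.8 ± 15.7 (0.24 ± 0.10, adjusted p = 0.399), and the difference was 0.11 without litter D24M15. Aco1 differed by between -0.20 and 0.034 over the 4 comparisons.

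Mt1 in embryos at 7–9 somite pairs was 294 ± 60.8 in normal and 372 ± 165 in diabetic pregnancies, a log2 difference of 0.33 ± 0.15 (edgeR adjusted p = 0.154), although 8 of 16 diabetic embryos lay above and 8 below the normal median. Few libraries set the upper end. The 3 highest diabetic embryos were D28M23B at 793, D23M26A at 641 and D24M15G at 561. These embryos also had the 3 highest sums of visceral endoderm markers of their group, 2184, 2264 and 3362 against a group median of 537, and D28M23B and D24M15G are among the libraries with mixed sex-linked counts. Without the concepti with mixed or different sex-linked counts, a fit that kept D23M26A, the difference was 0.21 (adjusted p = 0.411). The part of visceral endoderm content in the Mt1 difference was not tested. In yolk sacs of that stage Mt1 went the other way, 4012 ± 879 in normal and 3374 ± 776 in diabetic pregnancies (-0.25 ± 0.11, adjusted p = 0.408). That difference was -0.084 without litter D24M15 and -0.084 with the title number 28 alone. Mt2 differed by 0.15 ± 0.13 in these embryos and -0.050 ± 0.12 in these yolk sacs (adjusted p = 0.436 and 0.917), and by 0.053 in the embryos with the ribosomal protein share in the fit.

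Differences of the diabetes effect itself were tested as interaction terms. Between yolk sac and embryo 0 of 8 members were called at 5–6 somite pairs (0% of all genes) and 0 of 8 at 7–9 (0.389%). Between stages 0 of 8 were called in embryos, against 8.7% of all genes tested (4.35% raised, 4.35% lowered), and 0 of 8 in yolk sacs (0%). An unadjusted p under 0.05 was reached by 4 of the 32, which were Mt1 between tissues at 7–9 somite pairs, Mt1 between stages in embryos, and Ftl1 and Ireb2 between stages in yolk sacs. Of all genes, 3171 of 11304 reached it between stages in embryos and 634 of 10857 between stages in yolk sacs. The shares of all genes for the interactions between tissues are not reported here, so that of Mt1 stands without one. Mt1 between tissues at 7–9 was -0.57 ± 0.19 (edgeR adjusted p = 0.0958). It was called without litter D28M31 (-0.75, adjusted p = 0.0212) and was -0.37 without the concepti with mixed or different sex-linked counts (adjusted p = 0.483). Mt1 between stages in embryos was 0.44 ± 0.20 (adjusted p = 0.137). Ftl1 and Ireb2 between stages in yolk sacs were 0.48 ± 0.21 and -0.35 ± 0.14 (adjusted p = 0.850 and 0.777).

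With litters as the units, two-sided exact permutation tests of the litter means of log2(normalized count + 1) gave 0 of 32 differences after Benjamini-Hochberg adjustment. The lowest p values were 0.0315 for Tfrc in embryos at 7–9 somite pairs (-0.28, 1 of 6 diabetic litters above the median of the normal litters) and 0.0333 for Mtf1 in embryos at 5–6 (-0.25, 2 of 9 above), each with an adjusted p of 0.438 by the exact test.

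**Figure D4:**
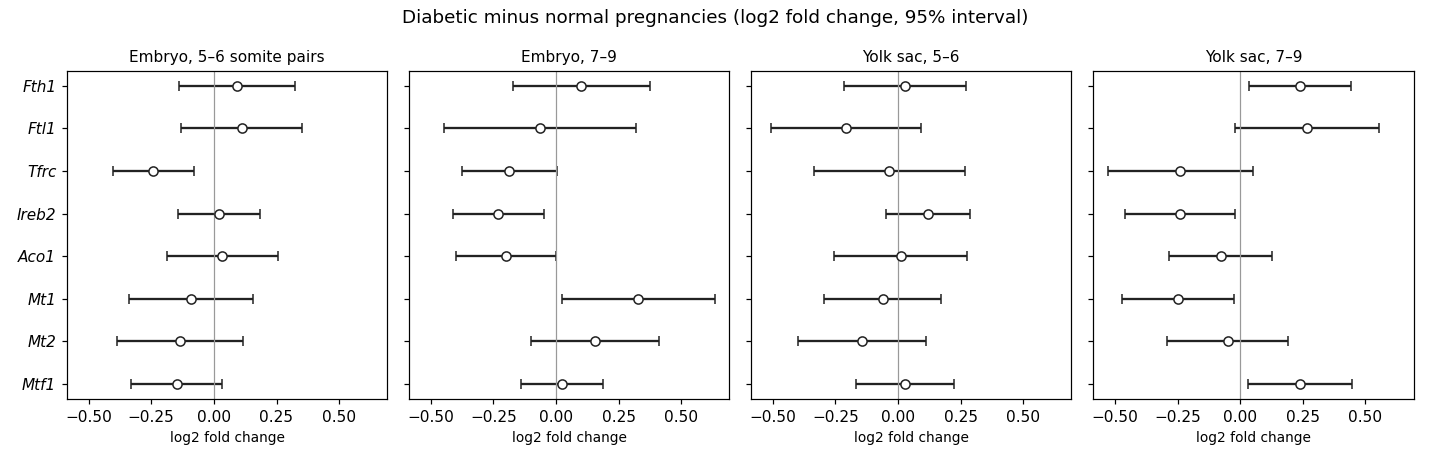
Log2 fold changes (diabetic minus normal pregnancies) of the 8 members with 95% intervals in embryos and yolk sacs at 5–6 and 7–9 somite pairs; open points are not called. All 32 points are open and lie between -0.25 and 0.33.

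Among concepti of one group, libraries with more Mt1 also had more Mt2. Correlations of log2(normalized count + 1) were computed within each of the 8 groups, and p values come from permutation tests with 100000 resamples, adjusted over all 24 relations tested. In 7 groups Pearson's r was 0.705 to 0.960 (Spearman's rho 0.585 to 0.900, permutation adjusted p of r 1.20e-04 to 0.00408, n = 16 or 17). Without the 2 libraries farthest from the median of the x measure r was 0.452 to 0.847. In diabetic yolk sacs at 5–6 somite pairs r was 0.450 (rho 0.515, permutation adjusted p = 0.122) and, without 2 libraries, 0.832. One library of that group had an Mt1 to Mt2 ratio of 2.56, where the group median was 1.25. Within litters, r of the deviations from litter means was 0.354 to 0.981, with a permutation adjusted p under 0.05 in 2 of 8 groups, diabetic embryos at 7–9 (0.0178) and normal yolk sacs at 5–6 (0.0221). Among libraries with the title number 28, r was 0.723 to 0.972 in the 7 groups and 0.170 in the other. The pairs share library, depth and tissue composition. The ratio of Mt1 to Mt2 had group medians of 1.08 to 1.30, and was higher in the yolk sac in 19 of 34 and 19 of 32 concepti.

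Mt1 also went with the visceral endoderm markers, as the mean of log2(normalized count + 1) over the 10 genes, in 5 of 8 groups. In diabetic embryos at 5–6 (r = 0.705), normal embryos at 7–9 (r = 0.609), diabetic embryos at 7–9 (r = 0.817), diabetic yolk sacs at 5–6 (r = 0.629) and normal yolk sacs at 7–9 (r = 0.610) the permutation adjusted p was 6.00e-04 to 0.0223, and rho was 0.568 to 0.755. Without the 2 farthest libraries r was 0.389 to 0.741 in these groups, lowest in normal yolk sacs at 7–9. Among libraries with the title number 28 it was 0.546 to 0.753. In the other 3 r was 0.202 to 0.292 (adjusted p at least 0.361, permutation test). Within litters only diabetic embryos at 7–9 kept an adjusted p under 0.05 (r = 0.876, permutation adjusted p = 0.0178). Tfrc against 5 primitive erythroid markers passed in 1 of 8 groups, normal yolk sacs at 7–9 (r = 0.631, rho = 0.615, permutation adjusted p = 0.0177), where r was 0.389 without the 2 farthest libraries and 0.695 with the title number 28 alone. In the other 7 groups r was -0.144 to 0.327. Within litters r was 0.544 in normal yolk sacs at 7–9 and highest in diabetic yolk sacs at 7–9, at 0.848 (permutation adjusted p = 0.270 and 0.147).

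**Figure D5:**
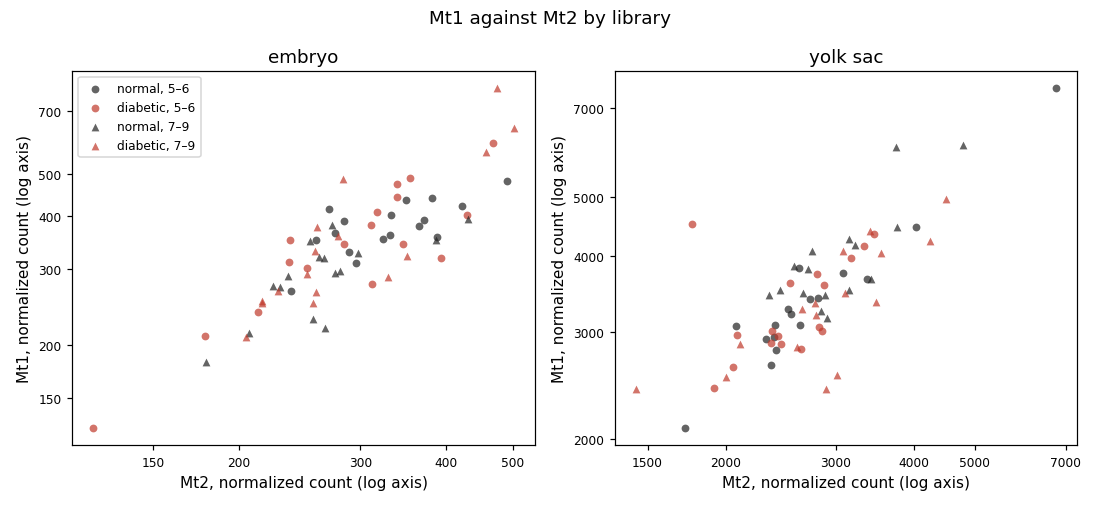
Normalized counts of Mt1 against Mt2, log axes, one point per library, in embryos (left) and yolk sacs (right), by maternal condition (black normal, red diabetic) and somite pairs (circles 5–6, triangles 7–9). The points run along a diagonal in both tissues, and 1 diabetic yolk sac of 5–6 somite pairs lies off it with a ratio of 2.56.

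The genes whose library-to-library pattern was most like each member were found from the deviations from the group means of log2 CPM over both tissues of the 66 concepti, among 12183 genes, as a description by Pearson's r. For Mt1 they were Mt2 (0.815), Ttr (0.703) and S100a1 (0.688), and Ttr, transthyretin, is one of the visceral endoderm markers. Mt2 had Mt1 (0.815), Rps28 (0.689) and Rpl23a (0.679). Among the 3 genes closest to Fth1 were Atp5b (0.751) and Rbmxl1 (0.707), and among those closest to Ftl1 were Cox8a (0.851) and Rps4x (0.816). Tfrc had Rnmt (0.718), Hat1 (0.635) and Nt5c3 (0.610), Ireb2 had Manea (0.743), Snrnp200 (0.733) and Mia2 (0.714), and Aco1 had Psmg1 (0.781), Ciao1 (0.775) and Mcm2 (0.753). Mtf1, the member with the fewest counts, had no gene above 0.487.

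Other genes of iron handling were taken from a list of 37, of which 36 were in the table. Between tissues 18 higher and 4 lower of 24 tested were called at 5–6 somite pairs and 18 higher and 4 lower of 24 at 7–9, against 79.2% and 81.3% of all genes called, with median log2 differences of 0.70 and 0.66 beside -0.0029 and -0.042 over all genes. The largest was Trf, transferrin, the ligand of the receptor Tfrc, at 5.26 ± 0.16 and 5.73 ± 0.22 (38.3-fold and 52.9-fold higher in yolk sac). Flvcr2, a transporter of the haem exporter family, was higher in yolk sac by 3.47 ± 0.19 and 4.03 ± 0.19, and Slc39a8, a metal importer, by 3.22 ± 0.11 and 3.78 ± 0.10. Lower in yolk sac were Heph, the ferroxidase hephaestin (-1.70 ± 0.10 and -1.71 ± 0.11), and Pcbp1, a cytosolic iron chaperone (-0.45 ± 0.091 and -0.54 ± 0.087), with Slc48a1, a haem transporter, at 7–9 (-0.46 ± 0.11). The edgeR adjusted p of these differences was at most 7.45e-05.

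With stage, 0 iron genes rose and 6 fell of 22 tested in embryos, where 30.8% of all genes were called. Among them were Slc40a1, ferroportin, the iron exporter (-0.52 ± 0.11, edgeR adjusted p = 1.92e-04), Flvcr1, a haem exporter (-0.38 ± 0.11), and Hmox1, which breaks down haem (-0.37 ± 0.12). In yolk sacs 8 rose and 4 fell of 24, where 40% of all genes were called. Flvcr2 (1.11 ± 0.15), Trf (0.52 ± 0.087) and Steap1, a metalloreductase family member (0.51 ± 0.13), rose there, and Hmox1 (-0.56 ± 0.13), Flvcr1 (-0.37 ± 0.11) and Bach1, a haem-sensing repressor (-0.34 ± 0.087), fell. The median change of the list was -0.0080 in embryos and 0.12 in yolk sacs, beside -0.0058 and 0.0087 over all genes. In the 4 diabetes comparisons 1 iron gene was called, Slc48a1 in embryos at 7–9 somite pairs (0.43 ± 0.12, adjusted p = 0.0268), 1 of 21 tested there beside 9.09% of all genes called. Over all genes the calls in that comparison went from 966 to 314 with litter as a random block and to 8 with counts summed per litter. Whether Slc48a1 stayed called in those fits is not reported here.

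Of 20 genes of zinc transport and metallothionein, 13 higher and 3 lower of 16 tested were called between tissues at 5–6 somite pairs and 13 higher and 3 lower of 16 at 7–9, where 79.2% and 81.3% of all genes were called (median log2 difference 0.85 and 0.93). The zinc importer genes Slc39a5 (4.69 ± 0.13 and 5.17 ± 0.16) and Slc39a4 (3.55 ± 0.10 and 4.15 ± 0.13) and the metal exporter gene Slc30a10 (3.05 ± 0.17 and 2.83 ± 0.19) were higher in yolk sac. Other transporters of the same families were lower there, Slc39a6 (-1.26 ± 0.076 and -1.58 ± 0.072), Slc39a10 (-0.71 ± 0.086 and -0.70 ± 0.082) and Slc30a9 (-0.31 ± 0.050 and -0.18 ± 0.054). With stage, 0 rose and 5 fell of 13 in embryos beside 30.8% of all genes called, Slc39a4 (-0.37 ± 0.14), Slc39a9 (-0.35 ± 0.081) and Slc39a10 (-0.32 ± 0.071) with the largest changes. In yolk sacs 4 rose and 3 fell of 16 beside 40% of all genes called, led upwards by Slc39a5 (0.61 ± 0.073), Slc39a3 (0.54 ± 0.11) and Slc39a13 (0.31 ± 0.10) and downwards by Slc39a6 (-0.28 ± 0.083), Slc39a9 (-0.27 ± 0.067) and Slc39a10 (-0.26 ± 0.10). In the diabetes comparisons 1 was called, Slc39a10 in embryos at 7–9 (-0.32 ± 0.10, edgeR adjusted p = 0.0441), 1 of 12 tested there beside 9.09% of all genes called. As for Slc48a1, its values under the alternatives are not reported here.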

How the data were processed

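Embryo and visceral yolk sac RNA was sequenced from its 3′ end (QuantSeq FWD kit, molecular identifiers added). The deposited values are raw counts per gene, which the authors made by STAR alignment, removal of repeated identifiers and HTSeq. The submitters' processing notes name the build mm10. Program versions and annotation: not given in the sources used here. The table held 136 libraries, of which 4 batch-control duplicates were left out. Totals per library were 1017901 to 5658850. Groups came from the labels. The members and gene lists were chosen with earlier results of these data known. Comparisons were fitted with edgeR 4.0.16 (estimateDisp, glmQLFit, glmQLFTest, TMM factors, filterByExpr with a minimum count of 10) under R 4.3.3, adjusted over all genes tested. Alternatives were DESeq2 1.42.0, whose size factors the study used, limma 3.58.1 with litter as a random block, other factors and filters, covariates for sex, somite number and title number, sums per litter and leaving out each litter. The conceptus labels pair embryo and yolk sac of 1 conceptus, and a fit with the conceptus as a replicate block was run for the comparisons of tissues. Leaving out concepti with mixed or different sex-linked counts and a covariate for the share of ribosomal protein counts were chosen after seeing the data. Normalized counts use DESeq2 size factors over the libraries of both tissues. Correlations and exact tests used Python 3.11.15 with SciPy 1.17.1 and a pseudocount of 1. The fits of the diabetes effect were tested on simulated counts, drawn without any likeness between littermates. Fits of tissue, stage and interaction were not tested in this way. The estimated correlation between littermates was 0.0576 to 0.251. Named were the 8 members and, from each of the 2 other lists and in each comparison, up to 3 called genes in each direction with the largest change, where the mean of 1 group reached 10 normalized counts, and for each member the 3 genes of most similar pattern. A few genes that these rules named are not reported here. Concepti of 1 litter share a dam, and p-values measure the spread between these concepti.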

Additional observations from a re-analysis of the deposited data

Results flagged for a closer look

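1 result differed between groups under the same contrast. Hmox2, a haem oxygenase of the iron handling list, had a difference of the diabetes effect between stages in embryos (7–9 minus 5–6 somite pairs) of 0.44 ± 0.14 on the log2 scale (edgeR adjusted p = 0.0328), 1 of 22 genes of that list tested and beside 8.7% of all genes called. It was called in 13 of 22 fits that left out 1 litter (not without D24M15, D28M23, D28M31, D28M53, N28M05, N28M06, N28M22, N28M25 or N28M30) and in 8 of 14 other alternatives. With counts summed per litter it was 0.38 (adjusted p = 0.292), with 1 gene called over all genes beside 984. With the ribosomal protein share in the fit it was 0.20 (adjusted p = 0.272), with 20 genes called. The part of litter and of ribosomal protein genes in it was not tested further. None of the 8 members differed in this way at an adjusted p under 0.05.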

How the results depend on the processing

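Calls of members between tissues and stages kept their direction and side of the threshold under the alternatives run, apart from those of Tfrc, Ireb2, Ftl1 and Mtf1 whose lost calls are given above. Mt1 and Mt2, not called with stage in the main fit, gained calls under the alternatives given above. Counts of members called moved by leaving out 1 litter, from 0 to 1 in the diabetes effect in embryos at 5–6 somite pairs (without D28M37), in embryos at 7–9 (without N24M21) and in its difference between tissues at 7–9 (without D28M31). Their ranges over all litters left out were 0 to 1. With the conceptus as a replicate block, which pairs the tissues, the calls were the same, 8 of 8 at 5–6 and 7 of 8 at 7–9 (Fth1 2.42 and 2.40), and 0 of 8 were called in each interaction between tissue and maternal condition. No paired analysis was possible for maternal condition because its groups share no conceptus or litter. Stages share no conceptus either, and with the litter as a random block in limma 4 of 8 were called with stage in each tissue, as without it. The values that changed sign were not called, the largest being Ftl1 in the diabetes effect in yolk sacs at 7–9 (0.27), and the cause was not tested. With no filter on low counts the sign turned in the diabetes effect in embryos at 5–6 Ireb2 -0.0031. With the title number 28 alone the sign turned in the diabetes effect in embryos at 5–6 Ireb2 -0.14, Aco1 -0.037, in the diabetes effect in embryos at 7–9 Mtf1 -0.0021, in the diabetes effect in yolk sacs at 5–6 Fth1 -0.091, Tfrc 0.033, Aco1 -0.057, in the diabetes effect in yolk sacs at 7–9 Ftl1 -0.0094, Mt2 0.031, in the stage difference in embryos Mtf1 -0.017 and in the stage difference in yolk sacs Tfrc -0.10. With counts summed per litter the sign turned in the diabetes effect in embryos at 7–9 Ftl1 0.028, in the diabetes effect in yolk sacs at 5–6 Fth1 -0.059, Tfrc 0.044, Aco1 -0.025, Mt1 0.010, Mtf1 -0.048 and in the diabetes effect in yolk sacs at 7–9 Mt2 0.0084. With the ribosomal protein share as covariate the sign turned in the diabetes effect in embryos at 7–9 Fth1 -0.025, in the diabetes effect in yolk sacs at 5–6 Tfrc 0.018, Mt1 0.10, Mt2 0.046, in the tissue difference at 7–9 Tfrc 0.067 and in the stage difference in yolk sacs Tfrc -0.12, Mt1 -0.056, Mt2 -0.11. With the title number as covariate the sign turned in the diabetes effect in embryos at 7–9 Mtf1 -0.0044. With the concepti with mixed or different sex-linked counts left out the sign turned in the diabetes effect in yolk sacs at 7–9 Mt2 0.030 and in the stage difference in yolk sacs Tfrc -0.018. With the DESeq2 test the sign turned in the stage difference in yolk sacs Tfrc -0.0040. With RLE factors the sign turned in the stage difference in yolk sacs Tfrc -0.0028. With the 2 concepti with different sex labels left out the sign turned in the stage difference in yolk sacs Tfrc -0.0024. Leaving out single litters, values whose sign turned ranged in the diabetes effect in embryos at 5–6 Ireb2 -0.014 to 0.064, Aco1 -0.018 to 0.12, Ftl1 -0.000048 to 0.20, and in the diabetes effect in embryos at 7–9 Ftl1 -0.14 to 0.062, Mtf1 -0.0024 to 0.050, and in the diabetes effect in yolk sacs at 5–6 Fth1 -0.015 to 0.070, Aco1 -0.064 to 0.082, Tfrc -0.12 to 0.12, Mtf1 -0.039 to 0.072, Mt1 -0.13 to 0.038, Mt2 -0.22 to 0.00053, and in the diabetes effect in yolk sacs at 7–9 Mt2 -0.16 to 0.050, and in the stage difference in embryos Aco1 -0.075 to 0.0021, and in the stage difference in yolk sacs Tfrc -0.047 to 0.086. Over all genes, the calls of diabetes in embryos varied between 0 (sums per litter) and 1753 (title number 28 alone) at 5–6, beside 161, and between 8 and 1714 (title number as covariate) at 7–9, beside 966. In yolk sacs at 5–6 they were 0 (863 genes at an unadjusted p under 0.05), 4 by DESeq2 and 0 by limma. At 7–9 they were 2, and 38 by DESeq2.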
